A study of Mus musculus with 57 samples.

Results

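The 10 genes described here, which carry the lipopolysaccharide (LPS) signal from outside the cell to the first kinases inside it, were followed across 2 RNA sequencing experiments on mouse brain cells: the co-receptor genes Lbp, Cd14 and Ly96, the adaptor genes Myd88, Tirap, Ticam1 and Ticam2, and the kinase family genes Irak4, Irak2 and Irak3. They were chosen by symbol as the co-receptors and proximal adaptors of LPS sensing, and all 10 of 10 were found in both count tables (50565 genes in the first and 53278 in the second) and passed the filter on low counts in both. The cells were CD11b-positive cells from the brain, labelled microglia, of wild-type (WT) mice and of littermates lacking P2RY12 (KO), a receptor for ADP that marks resting microglia. One experiment compared the genotypes in adult males (4 WT and 5 KO) and females (4 WT and 5 KO). No treatment is given for these samples one by one, although the protocol text shared by the whole series names LPS, and Saa3, an acute-phase gene raised by LPS, was at most 0.3615 CPM (counts scaled to the same library total) in them. The other compared, in each genotype, libraries labelled ns (a label that is not spelled out) with libraries labelled lps, where LPS was given into the peritoneum at 1 mg per kg. It held 8 WT ns, 9 WT LPS, 8 KO ns and 8 KO LPS libraries in 2 sets, told apart by the arm number in the library names. The number after a group below only names a library. Sex, age and the time after LPS are not given for it, nor is the KO allele, and whether the ns mice were injected is not stated. Nothing in the labels says that the libraries of a group came from separate animals, so the p-values measure only the spread between these samples.

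LPS of Gram-negative bacteria is taken up in the blood by LBP, a secreted lipid-transfer protein, and handed to CD14, which passes single molecules to the complex of TLR4 and MD-2, the latter encoded by Ly96. At the plasma membrane TIRAP then brings in MyD88, which gathers IRAK4 and further IRAK kinases and leads to NF-kappaB. From endosomes TRAM, encoded by Ticam2, brings in TRIF, encoded by Ticam1, which leads to type I interferon. IRAK3, also called IRAK-M, is known as a brake on the MyD88 route in macrophages. Microglia are the main brain cells known to express TLR4 and CD14.

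Several libraries stood apart and are treated as follows throughout. P2ry12 itself was at 3007 to 5928 CPM in the WT and 309.3 to 526.4 CPM in the KO libraries of the sex experiment, a log2 fold change of -3.42 ± 0.12 (standard error; adjusted p = 4.52e-13, edgeR), so the genotype labels held there. In the LPS experiment the 4 WT libraries of library number 2 went against their treatment labels. P2ry12 was at 490 CPM in the library labelled WT ns 1 and 903 CPM in that labelled WT ns 5, and Saa3 at 1814 and 2426 CPM. In the library labelled WT LPS 1 and that labelled WT LPS 6, P2ry12 was at 4505 and 11280 CPM and Saa3 at 1.61 and 2.98 CPM. The other 6 WT ns libraries had Saa3 between 1.53 and 64.7 CPM and the other WT LPS libraries between 1417 and 9329 CPM. The 4 number 2 libraries were therefore kept as groups of their own and entered no difference. WT LPS 8 and WT LPS 9 differed far less than any other pair of a group and were summed to 1 sample, which left 6 WT ns, 6 WT LPS, 8 KO ns and 8 KO LPS samples. In addition, 6 libraries of the second set (WT ns 5, WT LPS 6, WT LPS 7, KO ns 5, KO ns 6 and KO LPS 5) had 2.69 to 8.55% of counts on mitochondrial genes, against 0.787 to 1.81% in the other 26. Ribosomal protein genes took 2.25 to 5.59% of their counts, against 1.07 to 1.98%. Fold changes in the LPS experiment are given with and without these 6 libraries, a step added after the data had been seen.

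The sum of 10 microglia markers, P2ry12 among them, was 25840 to 43930 CPM in WT ns and 17150 to 25770 CPM in WT LPS, and 34110 to 49510 CPM in KO ns and 21280 to 27420 CPM in KO LPS, with no overlap in either genotype. The WT ranges leave out the number 2 libraries, which were set apart by P2ry12 and Saa3. Of these, the pair labelled WT ns had sums of 20070 and 23070 CPM and the pair labelled WT LPS 34890 and 46070 CPM. With the number 2 libraries left out, endothelial markers were also apart in WT (49.1 to 59.7 CPM in ns and 15.2 to 37.5 CPM in LPS), as were oligodendrocyte markers (110.1 to 123.4 and 59.4 to 86.7 CPM). The part of these shifts in the changes after LPS was not tested. The sum of 5 neuron markers was 1.75 to 18.7 CPM. The sum of 10 neutrophil markers, among them S100a8, S100a9 and Ly6g, ran from 300.8 to 48680 CPM and was above 0 for each of the 10 genes in every library. Monocyte markers summed to 143.5 to 4242 CPM and border macrophage markers to 87.8 to 933.8 CPM. Neutrophil values are given below beside Lbp, Tirap, Irak3 and, in the sex experiment, Irak4, Myd88 and Cd14. In bulk RNA, fewer cells of a type and less RNA per cell cannot be told apart.

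After LPS, Cd14, Myd88 and Irak3 were higher in both genotypes. With all libraries, 3 of the 10 genes passed in WT, all higher (Cd14, Myd88 and Irak3), against a background of 28.1% of 17954 genes tested (13.5% higher and 14.6% lower). In KO, 4 passed, all higher (Cd14, Myd88, Ticam2 and Irak3), against 26.2% of all genes (11.9% higher and 14.2% lower). Without the 6 libraries, 8 of the 10 were higher in WT, where 49.6% of all genes passed (24.5% higher and 25.1% lower), and 7 were higher and 1 lower in KO, where 49.9% passed (25.6% higher and 24.2% lower). The median log2 fold change of the 10 genes was 0.32 in WT and 0.57 in KO, beside -0.03 over all genes in each, and without the 6 libraries 0.41 in WT and 0.54 in KO. The ns and LPS ranges did not overlap for 3 of the 10 genes in WT and 2 in KO, against 22.6% and 7.1% of all genes. Without the 6 libraries this held for 5 genes in WT, and in KO for 6 higher and 1 lower, against 28.8% and 30.5% of all genes. Grouped by label alone, with the number 2 libraries included, none of the 10 passed in WT, where 0% of genes passed and 3605 genes had an unadjusted p under 0.05, and 4 passed in KO, where 22.3% did.

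**Figure D1:**
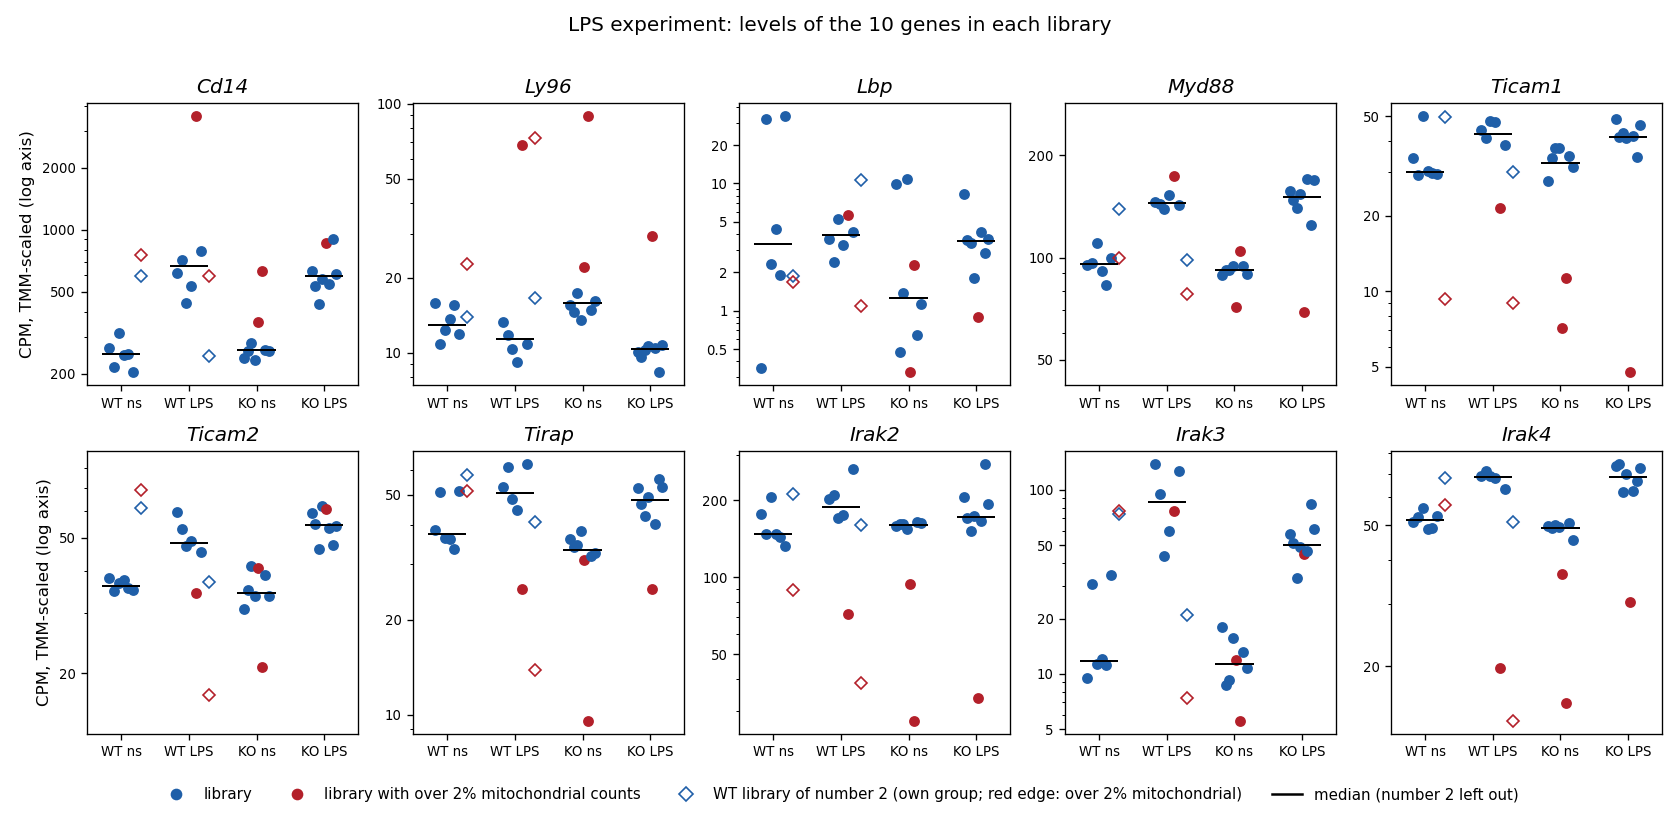
Level of each of the 10 genes (CPM scaled by TMM, log axis) in each library of the LPS experiment, by group; red marks libraries with over 2% mitochondrial counts, open diamonds the WT libraries of number 2, and the bar is the median of the others. Cd14, Myd88 and Irak3 lie higher in the LPS groups, while each red point lies below the other libraries of its label for Ticam1 and Irak2 and above them for Ly96.

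Lbp (chr2:158148413-158174772, plus strand, GRCm39) encodes the carrier that delivers LPS to CD14. Its level in WT ns was 0.356 CPM at the lowest, 3.36 at the median and 34.1 at the highest, and in WT LPS 2.43, 3.90 and 5.604 CPM. In KO ns the lowest, median and highest levels were 0.328, 1.25 and 10.9 CPM and in KO LPS 0.901, 3.52 and 8.23 CPM. The groups overlapped in both genotypes, and the spread within ns was far wider than within LPS. The log2 difference was -1.63 ± 0.83 in WT (adjusted p = 0.146) and 0.29 ± 0.72 in KO (adjusted p = 0.824), and without the 6 libraries -1.78 ± 0.95 (adjusted p = 0.131) and 0.12 ± 0.88 (adjusted p = 0.925).

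The ns libraries with the highest Lbp also had high neutrophil markers. WT ns 3 and WT ns 8 had neutrophil sums of 17710 and 16450 CPM and Lbp at 32.2 and 34.1 CPM. KO ns 1 and KO ns 4 had sums of 6349 and 7563 CPM and Lbp at 9.89 and 10.9 CPM. WT ns 2 and KO ns 2, with the smallest sums of 336.1 and 300.8 CPM, had Lbp at 0.356 and 0.471 CPM. KO ns 6, a library with a high mitochondrial share, had the largest sum of its group, 9563 CPM, with Lbp at 2.28 CPM. With the mean log2 level of the neutrophil markers as a covariate, added after the data had been seen, the log2 difference after LPS was 0.41 ± 0.34 in WT (adjusted p = 0.395) and 0.88 ± 0.29 in KO (adjusted p = 0.0248). With that covariate and without the 6 libraries, Lbp was higher after LPS in WT (0.70 ± 0.16, adjusted p = 0.000939) and in KO (0.80 ± 0.15, adjusted p = 8.23e-05). In that fit all 10 genes passed in each genotype, 9 higher and Ly96 lower, where 50.9% of all genes passed in WT and 52.3% in KO. Monocyte markers summed to as much as 2086 CPM in WT ns and 1274 CPM in KO ns. Whether neutrophils or monocytes are the source of the Lbp counts was not tested.

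**Figure D2:**
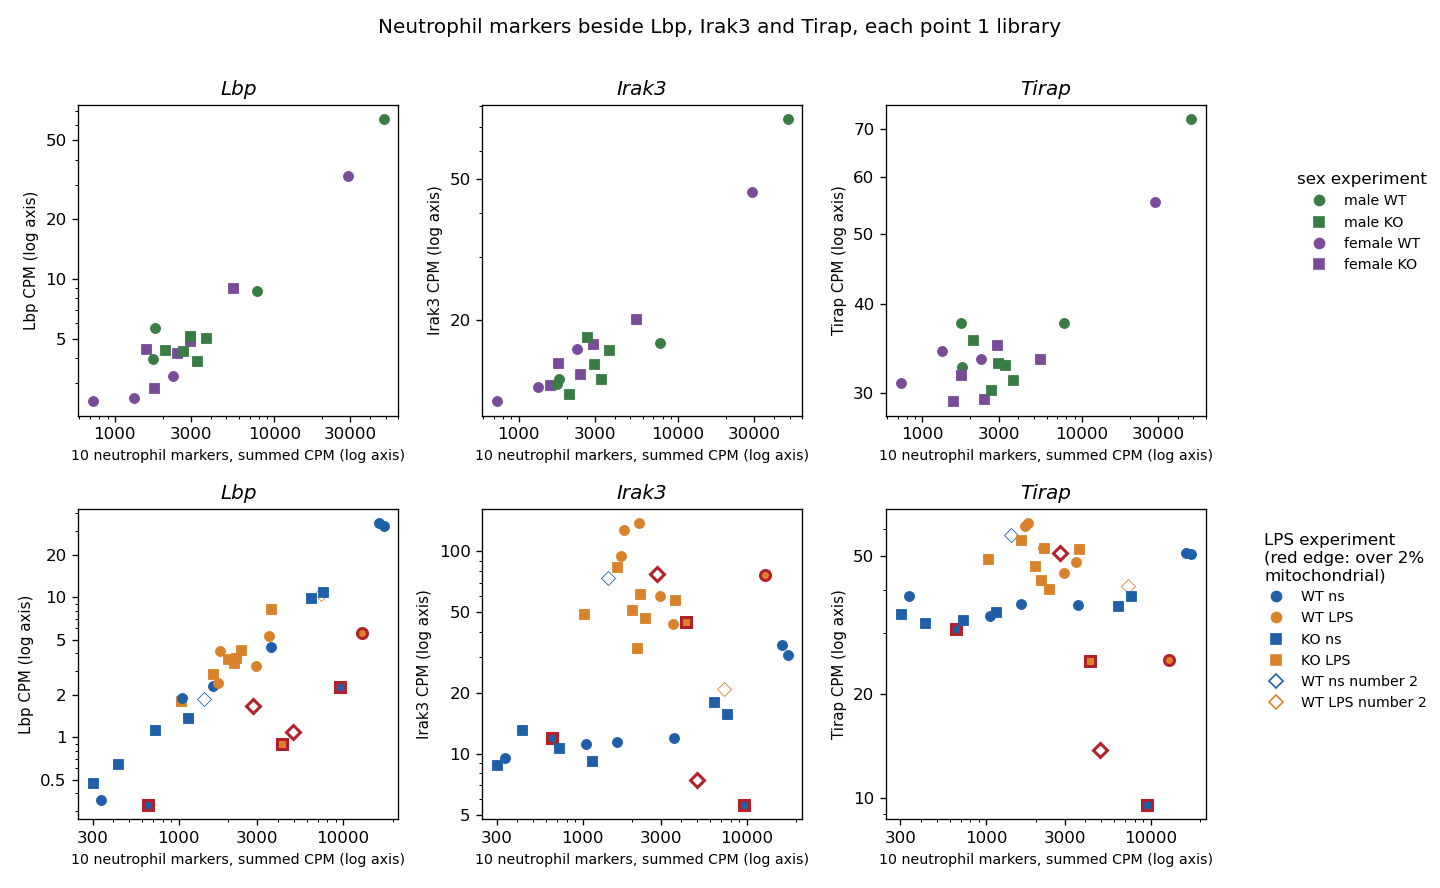
Levels of Lbp, Irak3 and Tirap against the summed level of 10 neutrophil markers (both CPM, log axes), each point 1 library, in the sex experiment above and the LPS experiment below; circles are WT, squares KO, open diamonds the WT libraries of number 2 and red edges libraries with over 2% mitochondrial counts. The highest Lbp values of the sex experiment (64.0 and 33.04 CPM) and of the ns groups (34.1 and 32.2 CPM) belong to the libraries with the largest sums, while KO ns 6, at 9563 CPM for the sum, is at 2.28 CPM.

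Cd14 (chr18:36858117-36859868, minus strand) encodes the surface co-receptor that passes LPS on to MD-2. In WT ns it was at 203 CPM at the lowest, 248 at the median and 316.7 at the highest, and in WT LPS at 441, 666 and 3570 CPM. In KO ns it was at 233.5, 260.2 and 628 CPM and in KO LPS at 437, 593 and 895.8 CPM. Every WT LPS sample lay above every WT ns sample, and the KO groups overlapped only through KO ns 6, whose 628 CPM was the highest of its group. The log2 fold change was 1.99 ± 0.35 in WT (adjusted p = 8.46e-05) and 1.03 ± 0.29 in KO (adjusted p = 0.00874). Without the 6 libraries, WT LPS 7 with its 3570 CPM among them, it was 1.34 ± 0.15 in WT (adjusted p = 7.08e-08) and 1.28 ± 0.14 in KO (adjusted p = 5.12e-08), and the groups no longer overlapped in either genotype. Among the number 2 libraries Cd14 was at 597.9 and 749.7 CPM in the pair labelled WT ns, and at 243.9 and 593 CPM in the pair labelled WT LPS.

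Ly96 (chr1:16758680-16779829, plus strand) encodes MD-2, the protein that holds the lipid part of LPS on TLR4. In WT ns it was at 10.8, 12.95 and 15.75 CPM (lowest, median and highest) and in WT LPS at 9.17, 11.3 and 68.0 CPM. In KO ns it was at 13.5, 15.8 and 89.5 CPM and in KO LPS at 8.32, 10.3 and 29.4 CPM. The highest sample of WT LPS, KO ns and KO LPS was in each case a library with a high mitochondrial share. With all libraries neither difference passed (WT 0.44 ± 0.44, adjusted p = 0.492, and KO -0.93 ± 0.38, adjusted p = 0.0726). Without the 6 libraries KO ns ran from 13.5 to 17.4 CPM and KO LPS from 8.32 to 10.7 CPM, with no overlap. Ly96 then fell by 0.56 ± 0.10 on the log2 scale in KO (adjusted p = 3.72e-05) and in WT the difference was -0.25 ± 0.11 (adjusted p = 0.0597). In these fits Ly96 was the 1 gene of the 10 that passed in the lower direction. Tlr4, the receptor itself, did not pass in either genotype, at 0.36 ± 0.31 in WT (adjusted p = 0.41) and -0.07 ± 0.27 in KO (adjusted p = 0.892), and without the 6 libraries at 0.02 ± 0.10 (adjusted p = 0.922) and 0.15 ± 0.09 (adjusted p = 0.208).

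Myd88 (chr9:119165000-119169084, minus strand) encodes the adaptor shared by most Toll-like receptors and the interleukin-1 receptor. In WT ns it was at 83.2, 95.6 and 110.5 CPM (lowest, median and highest) and in WT LPS at 139.2, 144.8 and 173.3 CPM. In KO ns it was at 71.4, 92.0 and 104.3 CPM and in KO LPS at 69.3, 150.8 and 170.1 CPM. The WT groups did not overlap, and the KO groups did so only through KO LPS 5, a library with a high mitochondrial share. The log2 fold change was 0.64 ± 0.15 in WT (adjusted p = 0.00222) and 0.64 ± 0.13 in KO (adjusted p = 0.000559), and without the 6 libraries 0.61 ± 0.07 (adjusted p = 2.15e-07) and 0.77 ± 0.07 (adjusted p = 1.68e-09).

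Because Myd88 and Irak3 were among the genes that rose in both genotypes, their promoter windows are printed here, from 250 bases before to 50 bases after a transcription start, as RefSeq gives them on GRCm38.p6 (another build than the coordinates above). The windows were searched on both strands for the kappaB motif, the binding motif of NF-kappaB, and for the interferon-stimulated response element written as GAAANNGAAA. Capitals mark a match. The window of Myd88 is chr9:119339969-119340268 on the minus strand, and those of Irak3 are chr10:120201548-120201847 and chr10:120202081-120202380, also on the minus strand.
Myd88: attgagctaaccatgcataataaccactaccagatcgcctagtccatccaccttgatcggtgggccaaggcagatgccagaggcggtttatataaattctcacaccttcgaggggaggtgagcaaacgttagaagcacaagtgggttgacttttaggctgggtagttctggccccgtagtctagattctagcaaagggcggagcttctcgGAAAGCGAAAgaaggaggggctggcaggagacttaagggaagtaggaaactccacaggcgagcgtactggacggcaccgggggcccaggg
Irak3, start 1: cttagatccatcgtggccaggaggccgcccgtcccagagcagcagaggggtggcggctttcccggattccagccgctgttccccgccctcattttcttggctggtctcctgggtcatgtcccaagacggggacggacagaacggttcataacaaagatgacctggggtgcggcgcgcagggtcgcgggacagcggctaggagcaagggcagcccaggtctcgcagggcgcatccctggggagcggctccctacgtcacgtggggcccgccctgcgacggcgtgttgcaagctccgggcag
Irak3, start 2: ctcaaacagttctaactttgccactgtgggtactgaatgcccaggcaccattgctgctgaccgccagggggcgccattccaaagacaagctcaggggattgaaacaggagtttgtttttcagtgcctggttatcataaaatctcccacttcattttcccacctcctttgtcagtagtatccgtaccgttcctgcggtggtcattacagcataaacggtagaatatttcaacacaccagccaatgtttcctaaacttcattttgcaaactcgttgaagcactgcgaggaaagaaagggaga

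The Myd88 window held 1 match to the interferon-stimulated response element, beginning at base 211 of the window on the gene's own strand, and none to the kappaB motif, so that no matches overlap. The 2 Irak3 windows held neither. Windows were found for 6 of the 10 genes (8 windows), and none of the others of these (Ticam1, Tirap, Irak2 and Irak4) held a match. Of 32851 RefSeq windows of the same length, 3.44% held the interferon-stimulated response element and 8.46% the kappaB motif.

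Tirap (chr9:35095687-35111587, minus strand) encodes the membrane adaptor that brings MyD88 to TLR4. It was at 33.6, 37.5 and 51.2 CPM (lowest, median and highest) in WT ns and 25.1, 50.5 and 62.5 CPM in WT LPS, and at 9.56, 33.4 and 38.4 CPM in KO ns and 25.01, 47.9 and 55.9 CPM in KO LPS. With all libraries it passed in neither genotype (WT 0.24 ± 0.25, adjusted p = 0.509, and KO 0.57 ± 0.22, adjusted p = 0.0511). Without the 6 libraries it rose in both, by 0.41 ± 0.11 (adjusted p = 0.00442) and 0.54 ± 0.11 (adjusted p = 0.000166), and KO LPS (40.3 to 55.9 CPM) lay wholly above KO ns (32.02 to 38.4 CPM). The 2 WT ns libraries with the highest neutrophil sums, WT ns 3 and WT ns 8, were also the highest in Tirap, at 50.8 and 51.2 CPM, while the other 4 lay between 33.6 and 38.5 CPM. Gm39318 overlaps Tirap in position, with at most 13.3% of its count in the sex experiment, and the counts are not stated to use strand.

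Ticam1 (chr17:56576462-56583767, minus strand) encodes TRIF, the adaptor of the interferon route. It was at 29.1, 29.95 and 50.3 CPM in WT ns, 21.5, 42.5 and 47.8 CPM in WT LPS, 7.16, 32.65 and 37.4 CPM in KO ns, and 4.75, 41.4 and 48.8 CPM in KO LPS (lowest, median and highest of each). The lowest sample of WT LPS, KO ns and KO LPS had a high mitochondrial share each time. With all libraries the differences were 0.25 ± 0.38 in WT (adjusted p = 0.68) and 0.47 ± 0.33 in KO (adjusted p = 0.326). Once the 6 were left out, Ticam1 rose by 0.38 ± 0.11 in WT (adjusted p = 0.00788) and 0.39 ± 0.11 in KO (adjusted p = 0.00354), while the ranges still overlapped in both.

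Ticam2 (chr18:46691298-46707600, minus strand) encodes TRAM, the bridge between TLR4 and TRIF. It was at 35.0, 36.2 and 38.0 CPM in WT ns and 34.5, 48.2 and 59.6 CPM in WT LPS, and at 20.9, 34.4 and 41.2 CPM in KO ns and 46.4, 54.5 and 62.2 CPM in KO LPS. Every KO LPS sample lay above every KO ns sample, and the WT groups overlapped only through WT LPS 7. The log2 fold change was 0.67 ± 0.14 in KO (adjusted p = 0.000358) and 0.40 ± 0.16 in WT, where it missed the threshold (adjusted p = 0.0541). It rose in both without the 6 libraries, by 0.65 ± 0.07 in KO (adjusted p = 7.34e-08) and 0.50 ± 0.08 in WT (adjusted p = 1.09e-05).

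Irak4 (chr15:94441495-94466198, plus strand) encodes the first kinase of the MyD88 complex. It was at 48.8, 51.9 and 56.1 CPM in WT ns and 19.8, 68.4 and 71.3 CPM in WT LPS, and at 15.7, 49.3 and 50.7 CPM in KO ns and 30.3, 68.4 and 74.5 CPM in KO LPS. The lowest sample of WT LPS, KO ns and KO LPS was again a library with a high mitochondrial share. With all libraries it passed in neither genotype (WT 0.19 ± 0.26, adjusted p = 0.646, and KO 0.57 ± 0.23, adjusted p = 0.0614). Without them the spread was small and the groups parted: 48.8 to 56.1 against 63.4 to 71.3 CPM in WT, and 45.4 to 50.7 against 62.1 to 74.5 CPM in KO. Irak4 then rose by 0.41 ± 0.05 in WT (adjusted p = 1.16e-06) and 0.54 ± 0.05 in KO (adjusted p = 3.91e-09), with the smallest standard error of the 10 genes in each.

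Irak2 (chr6:113615428-113671987, plus strand) encodes a kinase-like member that sustains the MyD88 signal. It was at 132, 147 and 205.2 CPM in WT ns, 71.6, 189 and 264.4 CPM in WT LPS, 27.4, 160.2 and 164.8 CPM in KO ns, and 33.7, 172 and 277.2 CPM in KO LPS. The groups overlapped in both genotypes, also without the 6 libraries. With all libraries the differences were 0.21 ± 0.37 in WT (adjusted p = 0.72) and 0.37 ± 0.32 in KO (adjusted p = 0.454). Without the 6 it rose in WT by 0.39 ± 0.13 (adjusted p = 0.0159) and missed the threshold in KO at 0.29 ± 0.12 (adjusted p = 0.0502).

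Irak3 (chr10:119977553-120038035, minus strand) encodes IRAK-M, the inhibitory member of the family, and had the largest fold change of the 10 genes in each genotype. It was at 9.48, 11.7 and 34.6 CPM in WT ns and 43.7, 85.5 and 138.2 CPM in WT LPS, and at 5.57, 11.3 and 17.9 CPM in KO ns and 33.1, 50.3 and 83.9 CPM in KO LPS. Every LPS sample lay above every ns sample of its genotype. The log2 fold change was 2.30 ± 0.36 in WT (adjusted p = 1.43e-05) and 2.21 ± 0.31 in KO (adjusted p = 2.77e-06), and without the 6 libraries 2.39 ± 0.37 (adjusted p = 1.98e-05) and 2.13 ± 0.36 (adjusted p = 4.29e-05). Among the number 2 libraries Irak3 was at 74.1 and 77.1 CPM in the pair labelled WT ns, and at 20.9 and 7.41 CPM in the pair labelled WT LPS. WT ns 3 and WT ns 8, high in neutrophil markers, had 30.6 and 34.6 CPM, while the other 4 WT ns libraries lay between 9.48 and 12.0 CPM. Under the neutrophil covariate the fold change was 2.59 ± 0.34 in WT (adjusted p = 1.4e-06) and 2.19 ± 0.28 in KO (adjusted p = 7.65e-07). Gm34545, Gm40781 and Gm38500 overlap Irak3 in position, the largest with at most 16.3% of its count in the sex experiment.

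**Figure D3:**
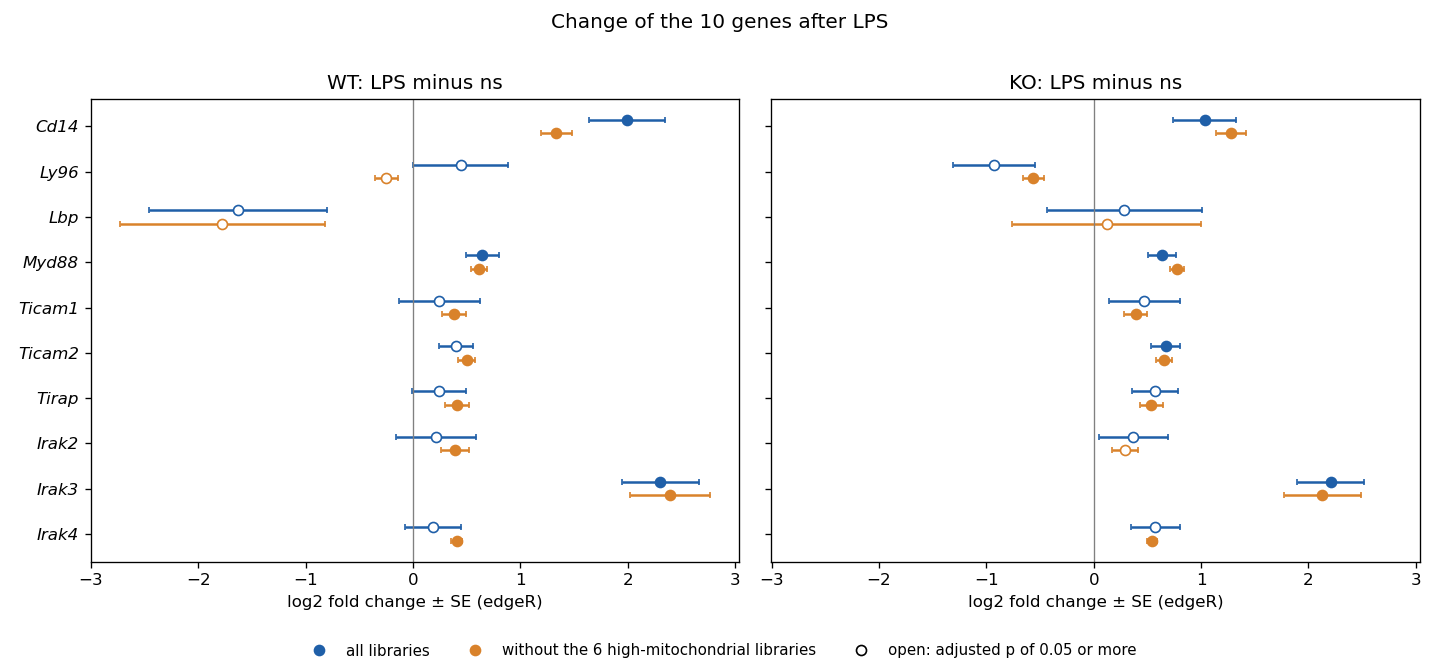
Log2 fold change after LPS (edgeR, bars are ± 1 standard error) of the 10 genes in WT (left) and KO (right), with all libraries in blue and without the 6 high-mitochondrial libraries in orange; open points had an adjusted p of 0.05 or more. Of the genes that passed, Irak3 and Cd14 have the largest changes (2.30 and 1.99 in WT with all libraries), and leaving out the 6 libraries shortens the bars of the genes other than Lbp and Irak3.

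The loss of P2RY12 gave no difference that passed for any of the 10 genes. In the ns libraries 0 of the 10 passed with edgeR, against 0.0891% of all genes, and 1 (Lbp) had an unadjusted p under 0.05. In the LPS libraries 0 passed, against 0.078% of all genes, and 2 (Cd14 and Irak3) had an unadjusted p under 0.05. For the difference between the genotypes in the change after LPS, 0 passed, against 0% of all genes, and 2 (Cd14 and Ly96) had an unadjusted p under 0.05. DESeq2 passed 0 of the 10 in each of these as well. With the 6 libraries left out 0 passed in each, where 0.252%, 0.252% and 0.00547% of all genes did. At these standard errors a difference could have gone undetected. For Lbp, with a standard error of 0.79 in the ns libraries and 1.10 for the difference in the change, this holds for large differences too.

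Among the co-receptors, Lbp differed by -2.20 ± 0.79 between KO ns and WT ns (adjusted p = 0.421), with the 2 WT ns libraries of high neutrophil sum in the WT group. Leaving out the 6 libraries alone gave -1.83 ± 0.94 (adjusted p = 0.443), the neutrophil covariate alone -0.42 ± 0.34 (adjusted p = 0.632), and both together -0.06 ± 0.17 (adjusted p = 0.955). Cd14 differed by -0.70 ± 0.31 between KO LPS and WT LPS (adjusted p = 0.741) and by -0.04 ± 0.14 without the 6 libraries (adjusted p = 0.954), among them WT LPS 7. The difference between KO and WT in the change of Cd14 was -0.96 ± 0.45 (adjusted p = 0.784) and without the 6 libraries -0.06 ± 0.20 (adjusted p = 0.991). For Ly96 that difference was -1.38 ± 0.59 (adjusted p = 0.784) and without the 6 libraries -0.32 ± 0.15 (adjusted p = 0.933). Ly96 passed the test of LPS in KO alone when the 6 libraries were left out, and the test of the difference does not show that the genotypes differed.

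Irak3 was the kinase gene with the largest genotype difference after LPS. Its median was 85.5 CPM in WT LPS and 50.3 CPM in KO LPS, and the ranges overlapped. The log2 difference was -0.75 ± 0.32 (adjusted p = 0.71) and without the 6 libraries -0.78 ± 0.35 (adjusted p = 0.393), or -0.78 ± 0.27 with the neutrophil covariate as well (adjusted p = 0.216). For the 4 adaptors the genotype differences after LPS lay between -0.11 and 0.19 on the log2 scale, and without the 6 libraries between -0.15 and 0.08.

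In the sex experiment no gene of the 10 passed in any comparison of the genotypes. With edgeR 0 of the 10 passed over both sexes, where 0.432% of 31709 genes did, 0 in males (0.00946% of genes), 0 in females (0.164% of genes) and 0 for the difference between the sexes (0% of genes). The 10 genes had an unadjusted p under 0.05 in 2, 3, 0 and 0 cases in that order. DESeq2 also passed none, and gave no p for Irak3. The table of this experiment gives as each gene's length its whole span, introns included, for all genes, so no level is compared between genes.

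**Figure D4:**
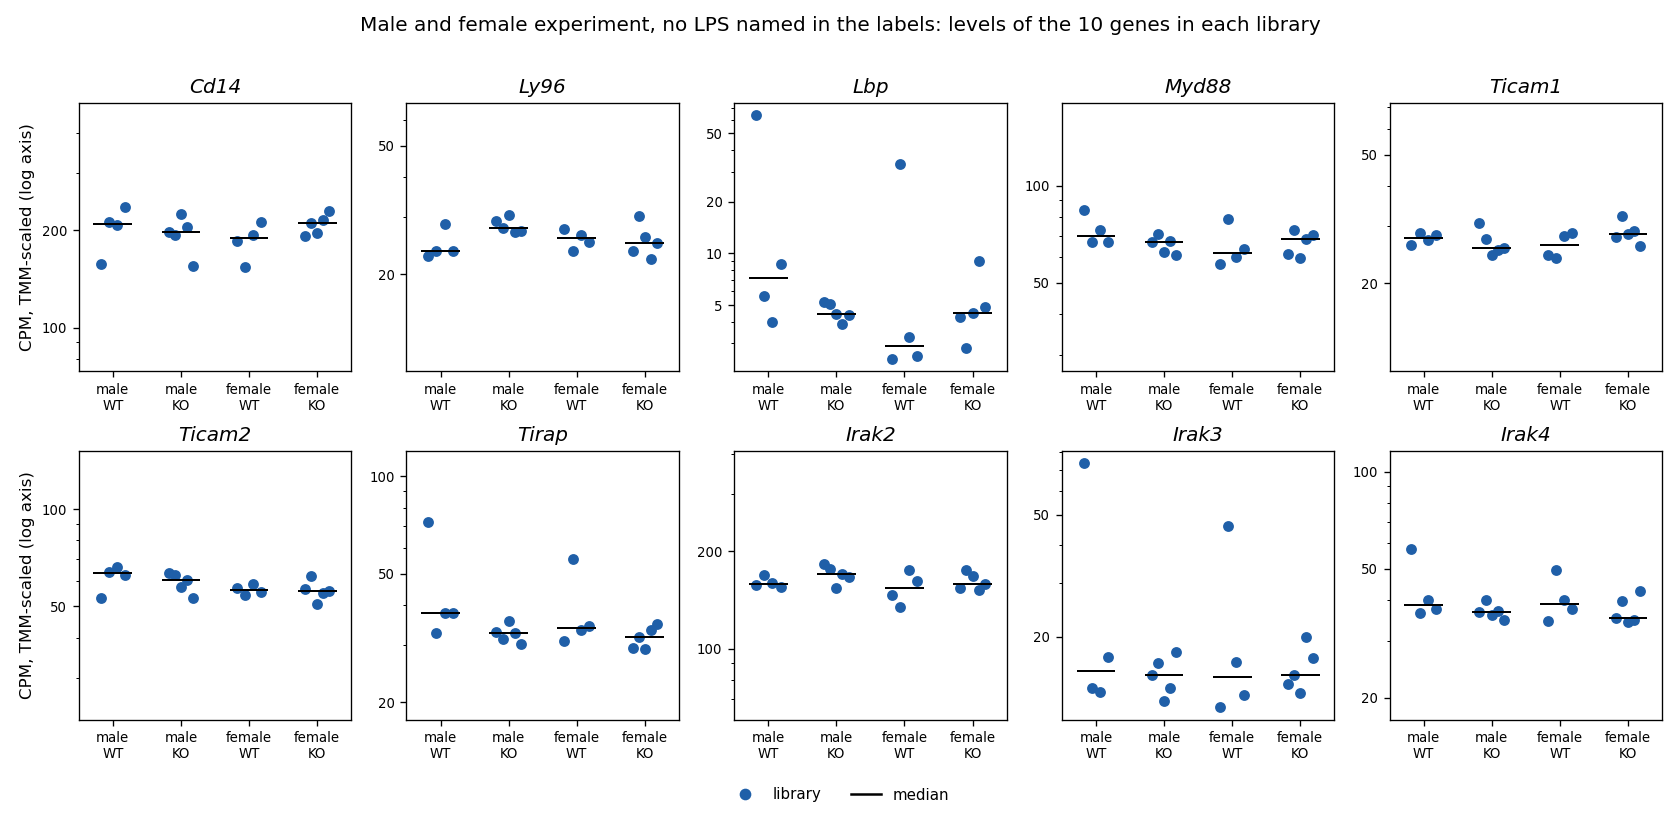
Level of each of the 10 genes (CPM scaled by TMM, log axis) in each library of the sex experiment, by sex and genotype, with the median as a bar. Male WT 5 and female WT 2 lie above the rest for Lbp, Irak3 and Tirap.

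Of the co-receptors, Lbp was at 64.0, 5.66, 3.97 and 8.68 CPM in male WT and at 5.19, 5.09, 4.42, 3.85 and 4.37 CPM in male KO. It was at 2.42, 33.04, 3.26 and 2.51 CPM in female WT and at 4.26, 2.82, 4.46, 8.99 and 4.87 CPM in female KO. One WT library of each sex, male WT 5 and female WT 2, stood far above the others, and these had the largest neutrophil sums of the experiment, 48680 and 28920 CPM, against 729.7 to 7736 CPM elsewhere. Monocyte sums also reached higher in WT, to 4242 CPM in males and 2413 CPM in females, against at most 475.4 and 779 CPM in KO. Monocyte markers were not fitted as a covariate. Over both sexes the log2 difference of KO from WT was -1.59 ± 0.63 (adjusted p = 0.497), and with the neutrophil covariate -0.30 ± 0.15 (adjusted p = 0.649).

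Cd14 was at 158, 213, 207 and 236 CPM in male WT and at 197, 194, 225, 204 and 155 CPM in male KO. It was at 185, 154, 193 and 212 CPM in female WT and at 192, 211, 196, 215 and 229 CPM in female KO. The groups overlapped, and the lowest WT library of each sex was the one with the largest neutrophil sum. The difference was 0.05 ± 0.08 (adjusted p = 0.968). Ly96 lay between 22.3 and 30.5 CPM in all 18 libraries, with a difference of 0.09 ± 0.06 (adjusted p = 0.753).

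Among the adaptors, Tirap was at 72.2, 32.6, 37.6 and 37.6 CPM in male WT and at 33.1, 31.4, 35.6, 32.9 and 30.3 CPM in male KO. It was at 30.98, 55.5, 33.5 and 34.3 CPM in female WT and at 29.4, 31.8, 29.2, 33.5 and 35.0 CPM in female KO. The 2 high values were again those of male WT 5 and female WT 2. The log2 difference was -0.37 ± 0.14 (adjusted p = 0.485) and with the neutrophil covariate -0.23 ± 0.07 (adjusted p = 0.13). Myd88 lay between 57.0 and 84.2 CPM, Ticam1 between 23.9 and 32.3 CPM and Ticam2 between 50.9 and 66.3 CPM over all libraries, and the 3 differences were -0.06 ± 0.07, 0.04 ± 0.06 and -0.03 ± 0.05. Myd88 was highest in male WT 5 (84.2 CPM) and female WT 2 (78.9 CPM), and its difference was -0.01 ± 0.05 with the neutrophil covariate (adjusted p = 1).

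Of the kinase genes, Irak3 was at 73.6, 13.6, 13.2 and 17.2 CPM in male WT and at 15.0, 16.4, 12.4, 13.7 and 17.9 CPM in male KO. It was at 11.8, 45.9, 16.6 and 12.9 CPM in female WT and at 14.0, 15.1, 13.1, 20.0 and 17.1 CPM in female KO. Here too male WT 5 and female WT 2 stood apart, and the remaining WT libraries lay within the KO range or just below it. The difference was -0.71 ± 0.36 (adjusted p = 0.588) and with the neutrophil covariate -0.18 ± 0.10 (adjusted p = 0.745). Irak2 (134.8 to 182.5 CPM over all libraries) differed by 0.08 ± 0.05 and Irak4 (34.3 to 57.6 CPM) by -0.17 ± 0.09, and neither passed. Irak4 was also highest in male WT 5 (57.6 CPM) and female WT 2 (49.6 CPM), and differed by -0.10 ± 0.06 with the neutrophil covariate (adjusted p = 0.78). Whether neutrophils or monocytes account for the levels in these 2 WT libraries was not tested.

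Other genes of the pathway were taken from lists compiled with earlier results of these data known. Of the 3 genes of the receptor and its relatives (Tlr4, Cd180 and Ly86), none passed after LPS with all libraries. With the 6 left out, Cd180 and Ly86, which encode a TLR4-like receptor and its MD-2-like partner, were lower in WT, by -0.50 ± 0.20 (adjusted p = 0.0469) and -0.39 ± 0.10 (adjusted p = 0.00305), and none of the 3 passed in KO. Of 18 kinases and ligases below the adaptors, 4 were higher and 1 lower in WT and 5 higher and 0 lower in KO, with medians of 0.07 and 0.19. These shares are near those of all genes, 28.1% in WT and 26.2% in KO. Leaving out the 6 libraries gave 7 higher and 2 lower in WT, and 9 higher and 2 lower in KO, where 49.6% and 49.9% of all genes passed. Ikbke, a kinase of the interferon route, rose most (4.36 ± 0.61 in WT, adjusted p = 3.14e-06, and 5.43 ± 0.56 in KO, adjusted p = 1.5e-08), and was at 4.62 and 5.18 with the 6 left out. Tank, its scaffold, rose by 1.54 ± 0.29 (adjusted p = 0.000202) and 1.04 ± 0.25 (adjusted p = 0.00217), or 1.05 and 1.15 with the 6 left out. Peli1, a ubiquitin ligase that acts on IRAK kinases, rose by 1.35 ± 0.13 in WT (adjusted p = 1.03e-08) and 0.86 ± 0.11 in KO (adjusted p = 1.12e-06), or 1.27 and 0.85. Tab2, an adaptor of the kinase TAK1, was lower in WT at -0.58 ± 0.19 (adjusted p = 0.0256), or -0.51, and Ripk1, a kinase of the TRIF route, was higher in KO at 0.45 ± 0.10 (adjusted p = 0.00133), or 0.46.

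Of 12 genes listed as inhibitors of the pathway, 4 were higher and 1 lower in WT and 4 higher and 0 lower in KO. This stands beside the same 28.1% and 26.2% of all genes. The medians of the 12 were 0.04 and -0.03. With the 6 libraries left out, 5 were higher and 3 lower in WT, and 5 higher and 2 lower in KO, beside 49.6% and 49.9%. Tnfaip3, which encodes the deubiquitinase A20, rose by 2.24 ± 0.25 in WT (adjusted p = 6.11e-08) and 1.98 ± 0.21 in KO (adjusted p = 2.84e-08), and by 2.33 and 1.94 with the 6 left out. Nfkbiz, listed here although its product does not act only as an inhibitor, rose by 2.23 ± 0.26 and 1.93 ± 0.22, or 2.02 and 1.89. Nfkbia, the NF-kappaB inhibitor, rose by 2.23 ± 0.24 and 1.58 ± 0.20, or 2.16 and 1.71. Ptpn6, a phosphatase, rose in KO by 0.64 ± 0.14, or 0.70, and Sigirr, a decoy-like receptor, was lower in WT at -0.96 ± 0.33 (adjusted p = 0.0296), or -0.89.

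Of 12 known LPS response genes, 10 were higher and 0 lower in WT and 10 higher and 1 lower in KO, with medians of 4.75 and 3.93. With the 6 libraries left out, 10 were higher and 2 lower in WT, and 10 higher and 1 lower in KO. The largest changes were those of Saa3 (8.22 ± 0.82 in WT and 9.85 ± 0.76 in KO, or 7.67 and 9.63 with the 6 left out), Nos2 (6.90 ± 0.93 and 7.88 ± 0.89, or 7.35 and 7.79), Il12b (6.74 ± 0.87 and 4.76 ± 0.72, or 5.42 and 4.95) and Acod1 (5.73 ± 0.64 and 5.64 ± 0.57, or 5.42 and 5.75). The number 2 libraries were set apart by their Saa3 and P2ry12 levels, so the change of Saa3 in WT was in part fixed by that choice. Il6, named after its values were seen as the 1 gene lower in KO, was at -2.30 ± 0.47 there (adjusted p = 0.000459) and at 0.24 ± 0.54 in WT (adjusted p = 0.785), or -2.26 in KO and -1.19 ± 0.19 in WT (adjusted p = 1.62e-05) with the 6 left out. None of these 45 genes passed for the genotype, in ns or after LPS, with all libraries. Peli1 was higher in KO ns than in WT ns when the 6 libraries were left out (0.48 ± 0.08, adjusted p = 0.00182, and 0.51 ± 0.12, adjusted p = 0.184, with all), and over both sexes of the sex experiment (0.32 ± 0.06, adjusted p = 0.0256).

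Genes were ranked by how closely the pattern of their group means ran to that of 4 of the 10. Log2 group means were first centred on each gene's own mean within each experiment, so patterns and not levels were compared. The distance was the root mean square difference over 10 groups of both experiments, among 9617 genes with a mean of at least 5 CPM in each. The WT libraries of number 2 formed groups of their own here, with 2 libraries for each label. Closest to Cd14 were Nhp2, Nudt19 and Vmp1, at 0.0708, 0.0787 and 0.0863, where the median gene was at 0.537. Closest to Ly96 were Zfp85, C330018D20Rik and Nbeal1, at 0.124, 0.126 and 0.126, with the median gene at 0.519. Closest to Irak2 were Secisbp2, Zfp324 and Zdhhc5, at 0.0472, 0.0525 and 0.0574, with the median gene at 0.352. For Irak3 the distances were larger, with Ell2, C5ar1 and Fgr at 0.176, 0.188 and 0.198, and so was that of the median gene, at 0.971. Among the 10 genes themselves the closest pair was Tirap and Irak4, at 0.118, and the farthest Ly96 and Irak3, at 1.22. The group means include the libraries with a high mitochondrial share.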

How the data were processed

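Poly(A) RNA of CD11b-positive brain cells was sequenced, per the labels' protocols. The submitters' processing notes name FastQC, STAR 2.6.1, featureCounts, Subread, DESeq2 and the build GRCm39, without their roles. The deposited values are whole-number read counts per gene, not normalized by the authors. Totals were 58.5 M to 318.5 M counts in the sex experiment and 15.9 M to 168.4 M in the LPS experiment, and each of the 10 genes had at least 8 counts in every library. Among small counts, 79 to 89.2% were even numbers in the sex experiment and 39.7 to 45.6% in the LPS experiment. The reason was not tested, and the totals of the 2 experiments are not compared. The 57 labelled samples include 6 repeat libraries that were not analysed here. Every column used maps to 1 sample by its name.

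Counts were fitted with edgeR 4.0.16 in R 4.3.3 (quasi-likelihood test, robust, TMM scaling, default expression filter), with Benjamini-Hochberg adjustment over all genes tested and a threshold of 0.05. The sex experiment was fitted with 4 group means over 18 libraries. The LPS experiment was fitted with group means, library set as covariate and the WT libraries of number 2 as groups of their own, over 32 samples. Every adjusted p in the text comes from edgeR unless DESeq2 1.42.0 is named. Levels are CPM on TMM-scaled library sizes, computed here. The procedure was tested on simulated data, in which all libraries shared a common mean profile apart from genes raised on purpose. High-mitochondrial libraries, neutrophil differences and deviation shared by same-numbered libraries were not simulated, so that test does not bear on them. The alternatives were DESeq2, RLE scaling, other filters, a replicate block, grouping by label, each library set alone and leaving out libraries. WT LPS 8 and WT LPS 9 had a chi-square per degree of freedom of 1.86 over genes with at least 20 counts, against 8.32 for the next closest pair, and were counted as 1 sample. This is above pure sampling noise, so keeping them apart was an alternative. Fits without the 6 high-mitochondrial libraries or with the neutrophil covariate were chosen after seeing the data.

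Named were all 10 genes, Tlr4, P2ry12, Saa3, in each genotype at most 4 genes of each list with the largest change among those that passed, and 3 genes of most alike pattern for Cd14, Ly96, Irak2 and Irak3. The genes, lists and groupings were chosen with earlier results of these data known.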

Additional observations from a re-analysis of the deposited data

Results flagged for a closer look

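Within groups of 4 to 8 samples, 80 sets of values (10 genes in 8 groups) were searched for a highest or lowest sample set apart from the rest by Dixon's criterion at 95%, which chance alone meets in about 1 of 20 groups. It was met 21 times, 12 of them by libraries with a high mitochondrial share. WT LPS 7 was high for Cd14 (3570 CPM) and Ly96 (68.0 CPM) and low for Ticam1 (21.5 CPM) and Irak4 (19.8 CPM). KO ns 6 was high for Cd14 (628 CPM) and Ly96 (89.5 CPM) and low for Tirap (9.56 CPM) and Irak4 (15.7 CPM). KO LPS 5 was high for Ly96 (29.4 CPM) and low for Myd88 (69.3 CPM), Ticam1 (4.75 CPM) and Irak4 (30.3 CPM).

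The 2 WT libraries of the sex experiment with the largest neutrophil sums met it for the same 3 genes. Male WT 5 was high for Lbp (64.0 CPM), Tirap (72.2 CPM) and Irak3 (73.6 CPM). Female WT 2 was high for Lbp (33.04 CPM), Tirap (55.5 CPM) and Irak3 (45.9 CPM). The other 3 cases were Ly96 in male WT 3 (28.7 CPM), Lbp in KO LPS 1 (8.23 CPM) and Ticam1 in WT ns 4 (50.3 CPM), the library with the largest total of its experiment, 168.4 M counts.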

How the results depend on the processing

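The number of the 10 genes that passed after LPS, 3 in WT and 4 in KO, was 0 in WT by label alone (0% of all genes). It was 6 and 7 with library set 1 alone (38.4% and 40.6% of all genes passed). Without the 6 high-mitochondrial libraries it was 8 and 8 (49.6% and 49.9%). Without them and with the neutrophil covariate it was 10 and 10 (50.9% and 52.3%). With set 2 alone, which holds all 6, it was 1 in KO (3.76% of all genes). It was 4 in WT and 6 in KO with DESeq2 (32.5% and 29.7% of all genes) and with RLE scaling (27.9% and 26.1%). Leaving out library number 2 in every group also gave 4 and 6 (36.3% and 29.3%). Keeping WT LPS 8 and 9 apart gave 4 and 4 (28.9% and 26.5%). With the replicate block it was 7 in KO and 3 in WT (31.3% and 32.2% of all genes), and 0 for every genotype comparison. Leaving out each library in turn gave 3 to 4 in WT and 4 to 7 in KO, 7 without WT LPS 7 and 7 without KO LPS 5. The shares of all genes in these fits are not given here, so the counts are not read as particular to the 10 genes. The genes whose call changed there were Ticam2 in WT and Ly96, Tirap and Irak4 in KO, each gained. Without the 6 libraries and with the neutrophil covariate, Ly96 and Lbp in WT changed sign and passed, at -0.28 (adjusted p = 0.0268) and 0.70 (adjusted p = 0.000939). No genotype comparison gained a call among the 10 in any setting run. Same-numbered libraries deviated together in 17 of 24 pairs of the sex experiment and 23 of 35 of the LPS experiment (correlation over 0.1). Their mean correlation was 0.195 and 0.308, against -0.0365 and 0.18 for pairs of other numbers. The main fits took no account of this shared deviation, and the replicate block fits did. Over all genes, the calls after LPS in WT and KO went from 5039 and 4696 to 532 and 721 with set 2 alone, 9065 and 9120 without the 6 libraries, and 9298 and 9565 with the neutrophil covariate as well. In KO it was 7118 with set 1 alone, and in WT 0 by label alone. The small counts of genotype calls over all genes moved too. KO against WT in ns went from 16 to 52 with DESeq2, 7 with a filter at a mean of 5 CPM, 1 with set 2 alone, 46 without the 6 libraries and 43 with the neutrophil covariate as well, and after LPS from 14 to 49, 6, 0, 46 and 121. After LPS it was 36 with the replicate block and 25 with set 1 alone, and on leaving out 1 library it ran from 7 (WT LPS 3) to 26 (WT LPS 5), with 8 or 9 without KO LPS 1, 3, 4, 6 or 8 or WT LPS 7. The genotype by LPS interaction went from 0 to 3 with DESeq2 and 1 without the 6 libraries, with set 1 alone, or without KO LPS 5, WT LPS 4 or WT LPS 5. In the sex experiment the calls over both sexes went from 137 to 358 with DESeq2 and 218 with the stricter filter, and to 279 without male WT 5. It was 54 to 83 without male WT 3 or 4, female WT 1 or 3, male KO 1, 2, 3 or 5, or female KO 2, 4 or 5. In males 3 became 27, 6 and 5 with DESeq2, the filter and the block, and in females 52 became 210, 79 and 85, 96 with no filter and 3 with only the groups compared. In females it was 5 or 6 without female KO 4 or 5 or female WT 1 or 3, 14 to 28 without female KO 2, female WT 5 or male KO 1, 2, 4 or 5, and 108, 111 and 132 without female KO 3, female WT 2 and male WT 5.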
